A study of Danio rerio with 56 samples.

Results

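Zebrafish larvae were compared at 16 and 8 days after fertilization. All libraries of the 2 ages in the deposited table of read counts were members, 12 of 16 d and 12 of 8 d, out of 56 in the series. The question of the comparison is which genes differ between the ages over all treatments. Each library was made from the polyadenylated RNA of 25 whole fish of the AB strain, pooled, so a level is a share of the RNA of all organs together. At each age 3 libraries came from each of 4 treatments. DMSO fish had the solvent alone, EM fish exemestane at 10 µg/L, E2 fish 17β-estradiol at 100 ng/L, and EM+E2 fish both. Exemestane inhibits aromatase, the enzyme that makes oestrogens, and estradiol is the main oestrogen. All groups carried the solvent, and the water was renewed daily from treatment to sampling. The labels give no sex. They are silent on whether replicate pools had separate parents or tanks, so the p-values speak of differences among libraries, which may be technical. Feed changed with age by design. Per the labels, fish ate paramecium alone from 6 to 10 d, paramecium with fairy shrimp from 11 to 15 d and shrimp alone from 16 d. Age and feed cannot be told apart here.

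A zebrafish larva lives on maternal yolk for its first days and must then catch live prey. When food is short, vertebrate tissues lower insulin and growth factor signalling, and FOXO transcription factors switch on genes for protein breakdown, autophagy and glucose production. When food is ample, cells make sterols, secrete proteins and divide. Over the same weeks the larva replaces its first red blood cells, adds cartilage, bone and scales, and builds up its own immune defences.

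Several libraries stand apart from their label. When each library was correlated with the mean of every age over 17013 genes, all 12 of 8 d were closest to 8 d, while 4 of 16 d were closest to another age. E2 16 d replicate 1 was closest to 2 d (r = 0.802, against 0.740 with 16 d), EM 16 d replicate 1 to 8 d (0.860 against 0.842), EM 16 d replicate 3 to 32 d (0.922 against 0.918) and EM+E2 16 d replicate 3 to 32 d (0.946 against 0.904). Points in these correlations are genes, and they are no independent replicates. The first 3 are left out in a repeat with 21 libraries, given beside the results. Depth was 7997634 to 9696935 counted reads at 8 d. At 16 d it was 4039030 to 9990090, with EM replicates 1 (4039030) and 3 (5109590) lowest. Those 2 libraries also had 3417 and 1545 CPM (reads per 1000000 counted, scaled) of MT-ND6, the one mitochondrial protein gene encoded on the opposite strand from the others, against 5.20 to 71.8 in the other 22. Over the 55 libraries used from all ages 6 had more than 1000 CPM of it (1448 to 4896), and these had 4039030 to 5263772 reads, fewer than any of the rest. The part of this difference in the results was not tested. The counts of EM+E2 16 d replicate 3 equal those deposited for an EM+E2 library of 2 d in all 32520 genes. They matched the reads recovered from the second deposited table better for the 16 d label (r = 0.957) than for the 2 d label (0.852).

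Of all 32520 genes 21497 had enough reads to test, and 6884 of them (32.0%) differed between the ages. Of these 3897 rose at 16 d (18.1% of those tested) and 2987 fell (13.9%). A gene was called at an adjusted p under 0.05 in edgeR's quasi-likelihood test with Benjamini-Hochberg adjustment, with treatment as a covariate, and all adjusted p-values below come from it. With a log2 change of 1 or more as well, 2278 rose (10.6%) and 1286 fell (5.98%). With the 21 libraries 4907 rose (21.8% of 22467) and 4495 fell (20.0%), 41.8% in all. 6437 genes were called the same way in both fits and 0 in opposite ways. The fits share 21 libraries, so opposite calls were unlikely from the start and the match is no independent support. The 3 libraries were singled out from their values, so the repeat only describes how the counts depend on them. The libraries of the ages did not overlap at all for 231 genes higher at 16 d (1.07%) and 134 lower (0.623%), or 708 (3.29%) and 311 (1.45%) among 21. The median log2 fold change of all genes was 0.0249, so gene lists are read against a value close to 0. In whole-body RNA, a change in the number of cells of a type and a change in RNA per cell cannot be told apart.

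**Figure D1:**
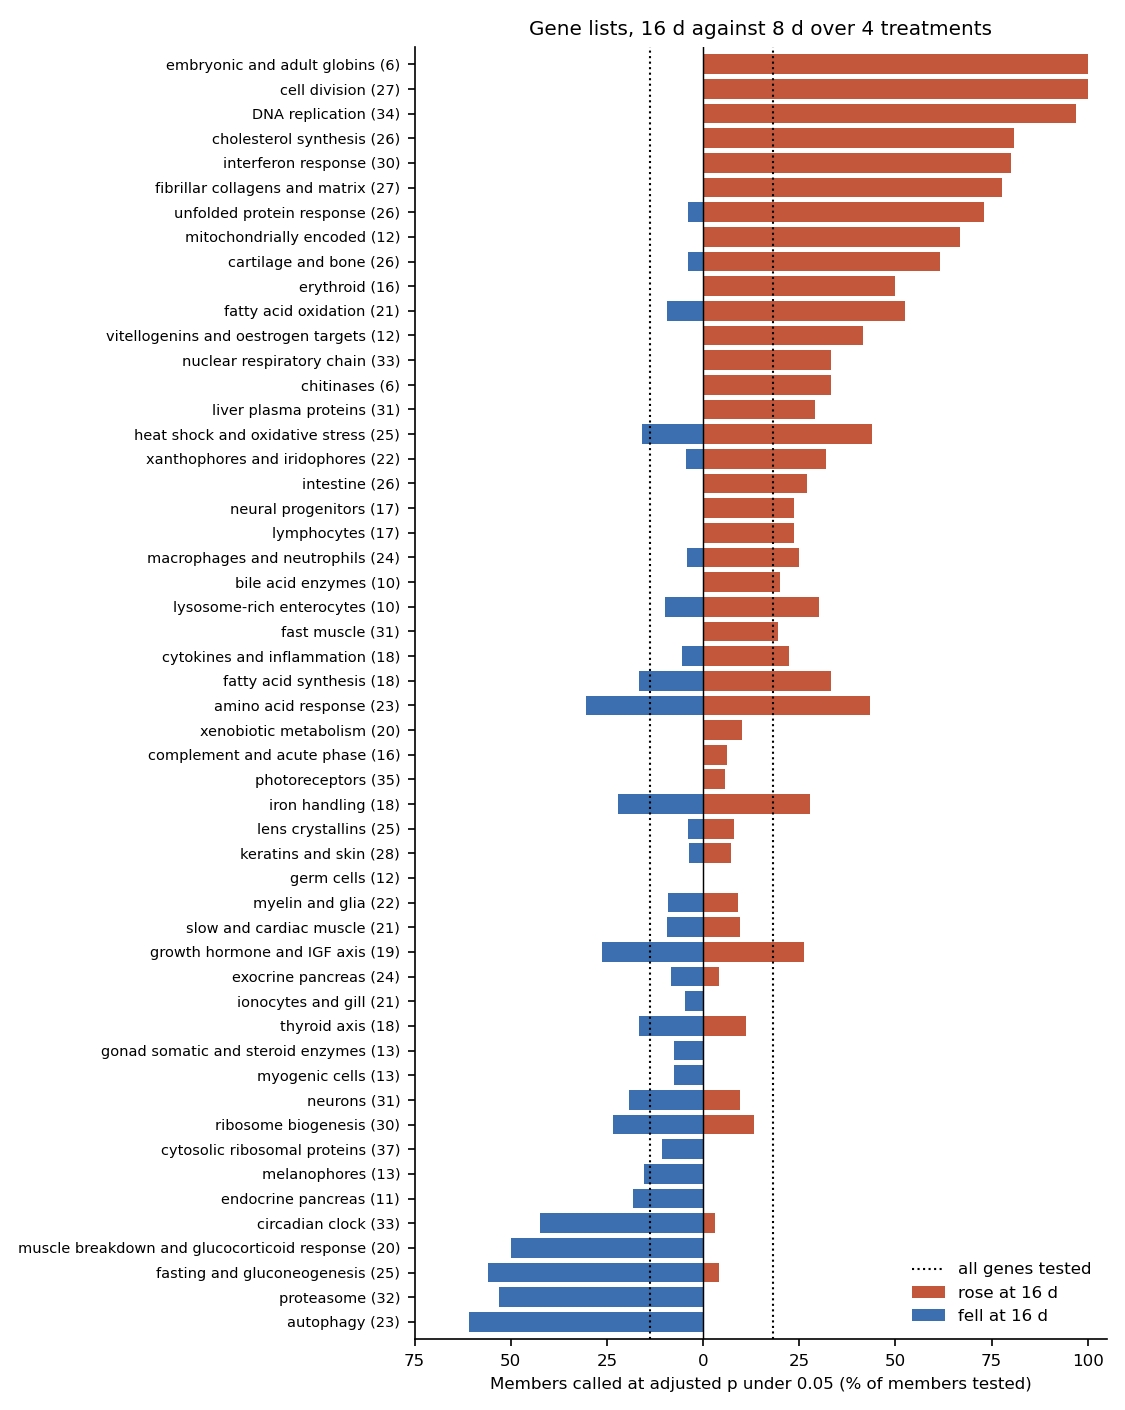
Share of the tested members of each gene list that rose (right) or fell (left) at 16 d, with the number tested in brackets. Dotted lines mark the shares of all genes tested, 18.1% and 13.9%. Division, sterol and interferon genes sit at one end, with autophagy, proteasome and fasting genes at the other.

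Cell division genes rose as a body. All 27 of the division list and 33 of 34 DNA replication genes rose, with median log2 fold changes of 2.47 and 2.26. At 8 d mki67, the gene of the proliferation marker Ki-67, had 12.9, 22.2 and 78.3 CPM as its lowest, median and highest library. At 16 d the values were 102, 152 and 279. No 16 d library was as low as any of 8 d, with a log2 change of 2.75 ± 0.23 SE, adjusted p = 1.49e-08. With 21 libraries the log2 change was 2.87 (adjusted p = 3.34e-08). PCNA, whose product clamps DNA polymerase to its template, went from 32.4 ± 18.6 to 163 ± 47.7 CPM (2.41 ± 0.23, adjusted p = 6.84e-08), again with no overlap. CCNB1, the mitotic cyclin B1, rose from 2.97 ± 1.38 to 21.2 ± 8.98 CPM and CDK2, a kinase of the start of DNA synthesis, from 2.69 ± 1.39 to 16.7 ± 5.23 CPM. MCM5, part of the replicative helicase, rose from 14.0 to 99.0 CPM and RRM1, a subunit of the enzyme that makes deoxynucleotides, from 20.0 to 105 CPM. The 8 d library with most division and replication RNA was EM+E2 replicate 1, with mki67 at 78.3 CPM, and it overlapped 16 d libraries for MCM5 and RRM1. In every 16 d library the median division gene lay above that of every 8 d library. The 3 libraries left out in the repeat were no exception, with mki67 at 151 CPM in E2 replicate 1 and at 102 and 116 CPM in EM replicates 1 and 3.

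Genes for making ribosomes showed no common rise. Of 30 ribosome biogenesis genes 4 rose and 7 fell (median -0.144), where 18.1% of all genes rose and 13.9% fell. With 21 libraries 7 rose and 7 fell (median 0.000458), near the 21.8% and 20.0% of all genes. Of 37 cytosolic ribosomal protein genes 0 rose and 4 fell (median -0.375), or 0 and 3 with 21 libraries. DDX21, an RNA helicase of the nucleolus, fell from 958 ± 208 to 249.5 ± 77.8 CPM (a log2 change of -1.93 ± 0.18 SE, adjusted p = 5.77e-08) with no overlap between ages. RRP12, an export factor of pre-ribosomes, fell from 388 to 158 CPM. The dyskerin gene DKC1, of the enzyme that modifies ribosomal RNA, was among those that rose, from 78.0 to 143 CPM.

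**Figure D2:**
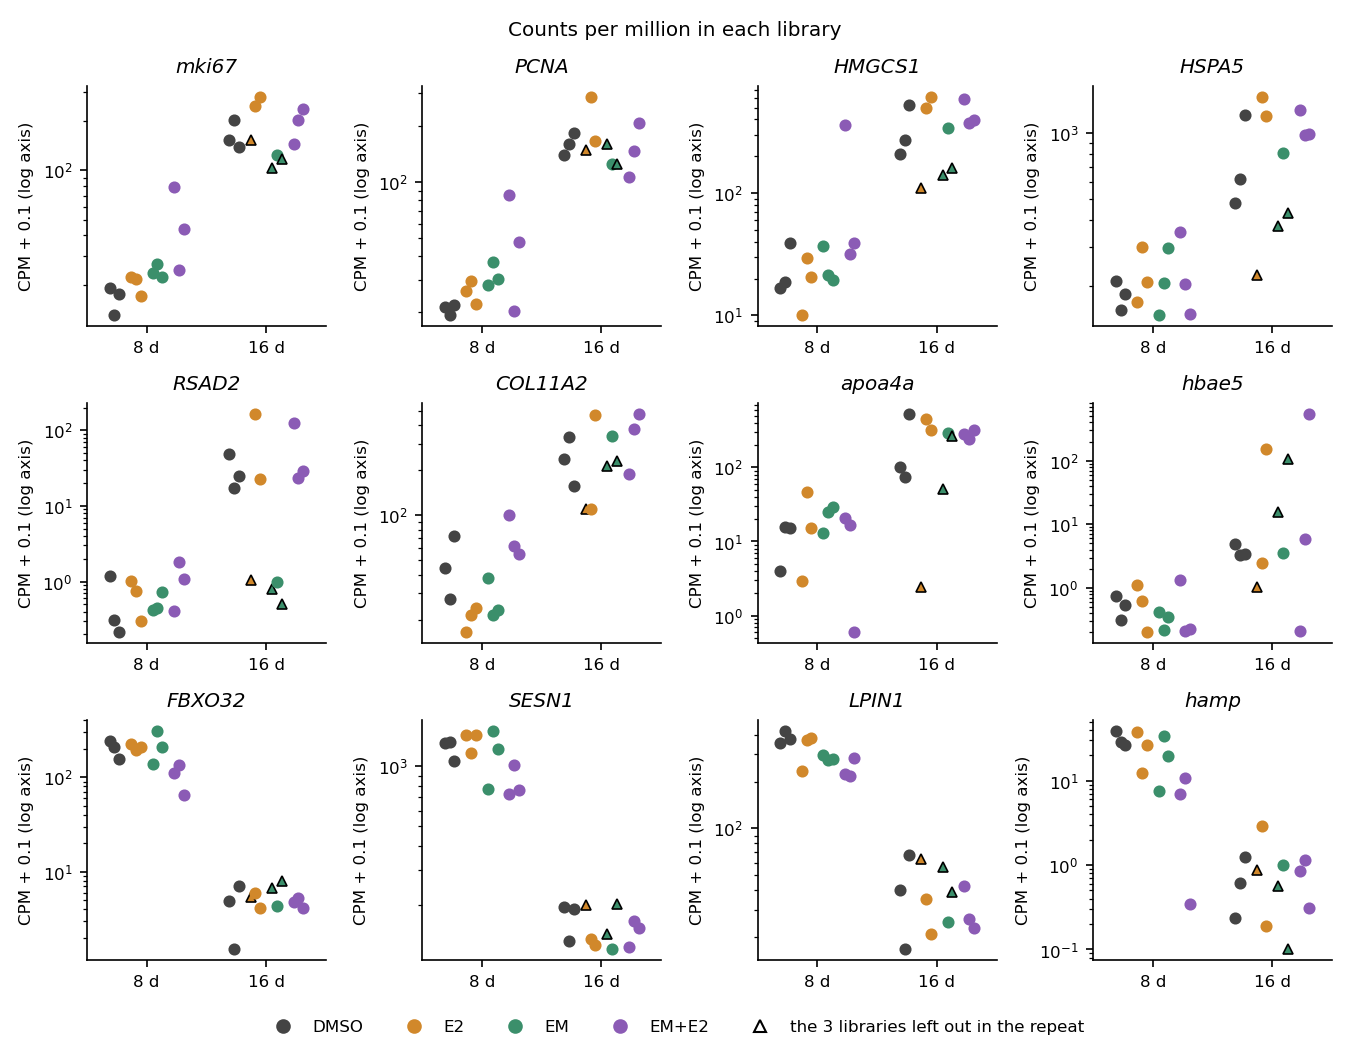
Level of 12 genes in each of the 24 libraries, as CPM + 0.1 on a log axis, by age and coloured by treatment. Triangles mark the 3 libraries left out in the repeat. The ages are fully apart for mki67, PCNA, COL11A2, FBXO32, SESN1 and LPIN1, and overlap for the other 6 genes.

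Genes of fasting, muscle protein breakdown and autophagy fell, some of them steeply. FBXO32 (atrogin-1) encodes the ubiquitin ligase adaptor that marks muscle proteins for destruction. Its lowest, median and highest libraries were 64.4, 201 and 309 CPM at 8 d and 1.4, 5.02 and 7.80 CPM at 16 d. Every 8 d library lay far above every 16 d library, and the fall (a log2 change of -5.13 ± 0.25 SE, adjusted p = 3.02e-12) had the smallest p of all genes tested. KLHL38 (ENSDARG00000040278), a Kelch-family protein of muscle, fell from 108 ± 40.6 to 3.76 ± 2.19 CPM (-4.78 ± 0.34). The muscle ubiquitin ligase gene trim63a (MuRF1) fell from 3.55 to 0.287 CPM. FBXO25, a close relative of atrogin-1, fell from 59.14 to 20.0 CPM. BNIP3, a receptor for the removal of mitochondria, fell from 31.1 ± 8.35 to 6.14 ± 1.80 CPM. Of the 20 genes tested in the list of muscle breakdown and glucocorticoid response 10 fell and 0 rose (median -0.633). FKBP5, a classic glucocorticoid target, did not follow them, going from 133 to 208 CPM with an adjusted p of 0.227. With 21 libraries FKBP5 had a log2 change of 1.14 (adjusted p = 0.0253). The median of the muscle breakdown list lay below that of every 8 d library in 7 libraries of 16 d. The lowest of 8 d was EM+E2 replicate 3, at -0.679.

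Regulators that respond to low insulin or low nutrients fell in the same libraries. SESN1 encodes sestrin 1, which restrains the growth kinase complex mTORC1. Its lowest, median and highest values were 728, 1198 and 1508 CPM at 8 d and 120.0, 149 and 202 CPM at 16 d. The ages were fully apart (a log2 change of -2.84 ± 0.16 SE, adjusted p = 2.96e-11). IRS2 (ENSDARG00000037099), an insulin receptor substrate that FOXO factors induce, fell from 166 ± 35.0 to 44.1 ± 18.2 CPM (-1.91 ± 0.18). LPIN1, a phosphatidate phosphatase of fat metabolism, fell from 309 ± 69.4 to 37.9 ± 17.1 CPM (-3.02 ± 0.22). Neither gene overlapped between the ages. The eIF4E inhibitor gene EIF4EBP3, whose product holds back translation, fell from 175 ± 51.5 to 44.2 ± 18.04 CPM (-1.97 ± 0.19). igfbp1b, a binding protein that withholds insulin-like growth factors, fell from 99.8 to 16.0 CPM, and TAT, the liver enzyme that degrades tyrosine, from 259 to 51.3 CPM. Of 25 genes in the list of fasting and gluconeogenesis 14 fell and 1 rose (median -0.842), where 13.9% of all genes fell and 18.1% rose. The one that rose was ANGPTL4, a lipoprotein lipase inhibitor, which went from 62.2 to 161 CPM (a log2 change of 1.36 ± 0.24 SE, adjusted p = 0.000145). The list's median lay below that of every 8 d library in 4 libraries of 16 d. EM+E2 8 d replicate 3 was the lowest of 8 d, at -1.01.

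Autophagy and proteasome genes fell by less but widely. Of 23 autophagy genes 14 fell and 0 rose (median -0.804), and in all 12 libraries of 16 d the list's median lay below that of every 8 d library. gabarapb, an ATG8-family protein of the autophagosome membrane, fell from 388 ± 119 to 156 ± 36.5 CPM (-1.29 ± 0.15). WIPI2, a phosphoinositide reader at the forming autophagosome, fell from 82.4 ± 8.99 to 48.0 ± 4.59 CPM (-0.78 ± 0.100). ATG14, which directs the lipid kinase complex of autophagy, fell from 54.2 to 17.2 CPM. The ages did not overlap for these 3 genes. Other genes named for the size of their fall, and in no list, include 3 that encode receptors of selective autophagy. CALCOCO1 (ENSDARG00000016391) fell from 149 ± 48.1 to 9.30 ± 5.25 CPM (a log2 change of -4.04 ± 0.26 SE, adjusted p = 6.22e-10), calcoco2 from 197 to 25.7 CPM and retreg1, a receptor for endoplasmic reticulum, from 20.3 to 1.54 CPM, all with no overlap. Of 32 proteasome genes 17 fell and 0 rose (median -0.628). With 21 libraries 14 fell and 0 rose (median -0.414), where 20.0% of all genes fell. The proteasome list's median lay below that of every 8 d library in 5 libraries of 16 d. In E2 16 d replicate 2 it was above the 8 d mean, at 0.374. PSMD3, a lid subunit, fell from 179 ± 38.6 to 78.9 ± 10.6 CPM (-1.16 ± 0.13) and the core subunit gene PSMB7 from 196 to 79.1 CPM.

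Other genes with the largest falls were of mixed roles. STYXL2, a muscle phosphatase-like protein, fell from 495 ± 155 to 53.0 ± 24.7 CPM (-3.22 ± 0.27). CYP24A1, which inactivates vitamin D, fell from 440.1 ± 184 to 49.2 ± 31.2 CPM (-3.12 ± 0.37), with overlap at EM+E2 8 d replicate 3 (44.7 CPM). CREBRF, a regulator of the stress factor CREB3, fell from 23.2 to 3.51 CPM, UPP2, a uridine phosphorylase, from 38.0 to 3.67 CPM, and spsb3b, a SOCS-box protein, from 8.79 to 0.206 CPM. PPP1R27, a subunit that regulates a protein phosphatase, fell from 5.72 to 0.437 CPM. For the last 2 genes some 16 d libraries had no read, so their fold changes depend on the prior count.

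Sterol synthesis rose across the pathway. Of 26 genes 21 rose and 0 fell (median 1.75). HMGCS1 makes the precursor of mevalonate at the head of the pathway. Its lowest, median and highest libraries had 9.87, 25.3 and 363 CPM at 8 d and 109, 357 and 611 CPM at 16 d. The 8 d maximum was EM+E2 replicate 1 alone, and the other 11 libraries of 8 d had 9.87 to 39.3 CPM, below all 16 d libraries. The test gave a log2 change of 3.21 ± 0.46 SE, adjusted p = 1.09e-05. SQLE, squalene epoxidase (ENSDARG00000079946), rose from 6.45 ± 15.9 to 57.2 ± 38.2 CPM (3.91 ± 0.65) and MVD, mevalonate diphosphate decarboxylase, from 5.59 ± 8.32 to 33.3 ± 24.3 CPM (2.78 ± 0.43), with the same 8 d library highest for both. ldlrb, a receptor that takes up lipoprotein cholesterol, rose from 7.18 to 21.5 CPM. E2 16 d replicate 1 had the lowest sterol list median of the 16 d libraries, 0.836 on the log2 scale above the 8 d mean.

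Genes of fatty acid handling rose more often than they fell. The counts of this paragraph are to be read against all genes tested, of which 18.1% rose and 13.9% fell. Of 18 synthesis genes 6 rose and 3 fell, with ELOVL2 and ELOVL5, which lengthen polyunsaturated fatty acids, rising from 39.7 to 191 CPM and from 8.21 to 50.5 CPM. Of 21 oxidation genes 11 rose and 2 fell (median 0.760). cpt1ab encodes carnitine palmitoyltransferase, which admits fatty acids to mitochondria. It had 20.5, 24.0 and 29.7 CPM at 8 d and 36.2, 112 and 130.2 CPM at 16 d as lowest, median and highest, and the ages did not overlap (a log2 change of 2.02 ± 0.16 SE, adjusted p = 8.96e-09). SLC25A20, the carnitine carrier, rose from 15.4 to 58.7 CPM, hadhaa, of the trifunctional oxidation enzyme, from 30.1 to 102 CPM, and CPT1B, the muscle form of the transferase, from 9.12 to 30.5 CPM. None of these 3 overlapped between the ages. The 2 that fell were regulators, PPARA (from 4.73 to 1.97 CPM) and PPARGC1A (from 13.3 to 7.42 CPM), a nuclear receptor and a coactivator that drive oxidation genes. Of 33 nuclear respiratory chain genes 11 rose and 0 fell. The ATP synthase gene atp5mc1 rose from 55.4 ± 15.9 to 173 ± 30.2 CPM (1.68 ± 0.15) with no overlap, and cycsb, a cytochrome c, from 170.3 to 439 CPM. Of 12 mitochondrially encoded genes 8 rose and 0 fell. Their median log2 change was 1.06 in DMSO, 1.15 in E2, 0.707 in EM and 0.0721 in EM+E2. The list's median lay above that of every 8 d library in 4 libraries of 16 d. MT-ATP6, an ATP synthase subunit, rose from 2923 to 6693 CPM and MT-ND1, a complex I subunit, from 2537 to 5200.0 CPM.

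Chaperones of the secretory pathway rose. Of 26 genes in the unfolded protein response list 19 rose and 1 fell (median 0.881). HSPA5 (BiP), the main chaperone of the endoplasmic reticulum, had 146, 204 and 351 CPM at 8 d and 223, 895 and 1468 CPM at 16 d (a log2 change of 1.93 ± 0.26 SE, adjusted p = 6.59e-06). Only E2 16 d replicate 1 lay inside the 8 d range, so that the other 11 libraries of 16 d were apart from it. SDF2L1, a cofactor of BiP, rose from 12.8 to 37.7 CPM, and CALR, calreticulin, from 100.1 to 223 CPM. The one that fell was DDIT3 (CHOP), the factor of the death-prone branch of the response, from 78.7 ± 10.4 to 41.2 ± 7.85 CPM (-0.94 ± 0.13), with no overlap. The list of heat shock and oxidative stress held 11 genes that rose and 4 that fell of 25. HSPD1, the mitochondrial chaperonin, rose from 90.8 to 248 CPM, and hsp70.3, an inducible cytosolic chaperone, from 16.6 to 74.6 CPM. Near-identical hsp70 copies may share reads. Of 23 genes of the amino acid response 10 rose and 7 fell. Serine synthesis was on the rising side, with PHGDH going from 14.3 ± 3.25 to 40.9 ± 14.6 CPM (1.52 ± 0.17) and PSAT1 from 9.68 ± 4.56 to 36.5 ± 19.6 CPM (1.92 ± 0.23), neither overlapping. sesn2, a leucine sensor and a paralog of SESN1, rose from 4.42 to 14.3 CPM, opposite to SESN1.

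Skeletal and connective tissue genes rose. Among the 26 tested for cartilage and bone, 16 rose and 1 fell (median 1.38), and of 27 genes of fibrillar collagens and matrix 21 rose and 0 fell (median 1.31). COL11A2, a collagen of cartilage fibrils, had 16.3, 32.6 and 99.8 CPM at 8 d and 110.3, 233 and 475 CPM at 16 d as lowest, median and highest. The ages did not overlap (a log2 change of 2.82 ± 0.28 SE, adjusted p = 1.26e-07). MATN1, a cartilage matrix protein, rose from 58.2 ± 22.0 to 341 ± 143 CPM (2.55 ± 0.27), and col9a3, a collagen on the surface of cartilage fibrils, from 50.9 ± 24.5 to 186 ± 57.7 CPM (1.97 ± 0.22), with no overlap either. The gene that fell was MATN3 (ENSDARG00000069245), a related matrilin, from 62.4 to 39.4 CPM (adjusted p = 0.00551). COL1A1 and COL1A2, the chains of the main collagen of bone and skin, rose from 193 to 761 CPM and from 139 to 592 CPM. LUM (lumican) and POSTN (periostin, ENSDARG00000104267), matrix proteins of connective tissue, rose from 17.2 to 80.6 CPM and from 98.3 to 343 CPM. enam, an enamel matrix gene, had no more than 2.69 CPM in any 8 d library and 0.155, 14.7 and 139.6 CPM at 16 d, with EM+E2 replicate 3 highest (a log2 change of 4.64 ± 0.81 SE, adjusted p = 0.000122). The same library had the highest median of both lists at 16 d, 2.23 and 2.88, and E2 replicate 1 the lowest, -0.398 and -0.621.

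Few muscle genes were called with 24 libraries, and more with the 21 of the repeat. With 21 libraries 10 of 31 fast muscle genes rose and 1 fell, where 21.8% of all genes rose and 20.0% fell. With 24 libraries 6 of the 31 rose, near the share of all genes that rose, and 0 fell. Among them was an alpha-actin gene, ACTA1 (ENSDARG00000055618), which rose from 519 ± 665 to 4488 ± 1924 CPM (3.51 ± 0.44), while reads of its near-identical copies may be split. TNNI2 (ENSDARG00000013752), a fast troponin, rose from 7.23 to 22.5 CPM. Of 21 slow and cardiac muscle genes 2 rose and 2 fell, with smyhc1, the slow myosin of larval muscle, falling from 255 to 125 CPM. With 21 libraries 6 of these genes rose and 2 fell. E2 16 d replicate 1 had the lowest median of the 24 libraries for both lists, -1.76 and -1.89. Of 13 myogenic genes the one called with 24 libraries was MYF6, a factor of muscle differentiation. It fell from 21.1 ± 8.45 to 5.67 ± 2.19 CPM (-1.90 ± 0.28) with no overlap. With 21 libraries 3 of the 13 rose and 1 fell.

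Gut and liver genes rose in part, and their counts changed without the 3 libraries left out in the repeat. Of 26 intestine genes 7 rose and 0 fell (median 0.658), or 14 and 0 with 21 libraries. Of 31 plasma protein genes of the liver 9 rose and 0 fell (median 0.592), or 16 and 0. Of all genes tested 18.1% rose, or 21.8% with 21 libraries. E2 16 d replicate 1 and EM+E2 8 d replicate 3 were low in both lists, at -3.18 and -2.80 for the intestine and -2.64 and -3.33 for the liver on the log2 scale against the 8 d mean. The repeat leaves out this 16 d library but keeps this 8 d library, which lowers the 8 d level. The higher counts with 21 libraries are thus no cleaner measure of the rise. The apolipoprotein gene apoa4a, of gut lipid transport, had 0.491, 15.4 and 46.1 CPM at 8 d and 2.33, 274 and 527 CPM at 16 d (a log2 change of 3.90 ± 0.64 SE, adjusted p = 5.92e-05). Its 16 d minimum is E2 replicate 1, and the other 11 libraries had 51.0 CPM or more, above all of 8 d. apoa4b.3, a tandem copy, rose from 25.7 to 290.1 CPM, and AGR2, which folds mucins in goblet cells, from 9.80 ± 4.74 to 66.8 ± 45.1 CPM (2.77 ± 0.45). muc2.2, a mucin gene, was high in 1 library, E2 16 d replicate 3, with 117 CPM against 0 to 6.05 in the other 23. Of liver genes, apobb.2, an apolipoprotein B, rose from 1.54 ± 1.19 to 36.6 ± 29.2 CPM (a log2 change of 4.49 ± 0.49 SE, adjusted p = 4.48e-07), tfa, transferrin, from 434 to 3093 CPM, APOB from 110.4 to 695 CPM and apoea, an apolipoprotein E, from 444 to 1902 CPM. The complement gene c3a.2 rose from 6.64 to 67.7 CPM, the only one called of 16 in its list. nr0b2b, a nuclear receptor that damps bile acid synthesis in mammals, rose from 0.289 to 7.03 CPM, and g0s2, an inhibitor of fat breakdown, from 0.460 to 14.7 CPM.

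Digestive enzymes of the pancreas showed no common change. Of 24 exocrine genes 1 rose and 2 fell. prss1, a trypsin gene, was at 216, 2341 and 3495 CPM at 8 d and 62.1, 1772 and 3687 CPM at 16 d as lowest, median and highest, and did not pass the test (a log2 change of -0.55 ± 0.50 SE, adjusted p = 0.43). amy2a, pancreatic amylase, fell from 1082 ± 673 to 287 ± 315 CPM (adjusted p = 0.0184). The list's median was at -2 or lower in 4 libraries of 16 d, DMSO replicates 1 and 2, E2 replicate 1 and EM replicate 1, and in EM+E2 8 d replicate 3. Of 10 genes of lysosome-rich enterocytes 3 rose and 1 fell, where 18.1% of all genes rose and 13.9% fell. With 21 libraries 6 rose and 2 fell, where 21.8% and 20.0% of all genes did. CUBN, the endocytic receptor of these cells for luminal protein, rose from 27.5 to 78.4 CPM. Without E2 16 d replicate 3 the adjusted p of CUBN was 0.0789. The gene ctsla, of a lysosomal protease, fell from 482 to 197 CPM.

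Red cell genes rose, with a wide spread between the 16 d libraries. Of 8 globin genes matched to the data 6 had enough reads to test, and these 6 rose (median 2.99). The listed beta globins hbbe1.1, hbbe1.2, hbbe1.3, hbbe2, hbba1 and hbba2 were not matched, so the counts leave them out. Of 16 erythroid genes 8 rose and 0 fell (median 1.04). hbae1.3, an embryonic alpha globin, rose from 1.91 ± 1.103 to 16.1 ± 13.1 CPM (a log2 change of 2.96 ± 0.44 SE, adjusted p = 2.11e-05), but close copies of globin genes may share reads. hbae5, another embryonic-type alpha globin, had 0.0991, 0.284 and 1.25 CPM at 8 d and 0.107, 4.11 and 545 CPM at 16 d (a log2 change of 6.63 ± 1.18 SE, adjusted p = 0.000151). Its mean at 16 d rested on EM+E2 replicate 3 (545 CPM), E2 replicate 3 (152) and EM replicate 3 (108), while the other 9 libraries had 0.107 to 15.3. The adult globin hbaa1 reached 288 CPM in EM+E2 16 d replicate 3 and no more than 5.63 in any other library. Without that library its adjusted p was 0.115, and without E2 16 d replicate 3 it was 0.0616. SLC4A1 (ENSDARG00000012881), the anion exchanger of red cells, rose from 10.0 ± 6.83 to 91.7 ± 81.5 CPM (3.22 ± 0.46). UROD, an enzyme of haem synthesis, rose from 4.37 to 15.0 CPM.

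Of 18 iron handling genes 5 rose, 4 fell and 9 were not called (median 0.335), where 18.1% of all genes rose and 13.9% fell. With 21 libraries 6 rose and 3 fell, where 21.8% and 20.0% of all genes did. tfr1a and tfr1b, receptors that import transferrin iron, rose from 2.70 to 23.4 CPM and from 10.0 to 40.2 CPM. hamp encodes hepcidin, the hormone that blocks iron export. It had 0.245, 22.7 and 38.7 CPM at 8 d and 0, 0.628 and 2.80 CPM at 16 d, and fell (a log2 change of -4.59 ± 0.56 SE, adjusted p = 1.57e-06). The 8 d minimum, EM+E2 replicate 3, was the one library of 8 d that overlapped the 16 d range of 0 to 2.80 CPM. CYBRD1, a ferric reductase, fell from 6.87 to 2.61 CPM. hpxa, a haem-binding plasma protein, had 414 CPM in EM+E2 16 d replicate 3 and at most 57.0 in any other library.

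Interferon-stimulated genes rose in most but not all 16 d libraries. Of 30 genes 24 rose and 0 fell (median 2.06), and 27 rose with 21 libraries. RSAD2 (viperin), an enzyme that blocks viral replication, had 0.112, 0.486 and 1.72 CPM at 8 d as lowest, median and highest, and rose (a log2 change of 5.39 ± 0.80 SE, adjusted p = 1.89e-05). At 16 d it was at 17.3 to 49.0 CPM in DMSO, 22.5 and 164 CPM in E2 replicates 3 and 2, and 23.5 to 123 CPM in EM+E2. It was at 0.400 to 0.897 CPM in all 3 EM libraries and at 0.932 CPM in E2 replicate 1, which is inside the 8 d range. The list's median lay above all 8 d libraries in 10 of 12, the exceptions being E2 replicate 1 (-0.168) and EM replicate 1 (-0.139). mxa and mxb, antiviral GTPases, rose from 0.443 to 12.0 CPM and from 0.253 to 20.0 CPM, CMPK2, a nucleotide kinase induced by interferon, from 0.202 to 8.55 CPM, and ifit14, an RNA-binding effector, from 0.414 to 23.3 CPM. ifit8 had 4 reads in all 8 d libraries together and 1207 at 16 d, a ratio of 329 with a 95% exact interval of 128 to 1210 for counting error only. hspa12a.1, an HSP70-like gene with a near copy beside it, had 2 reads at 8 d and 2308 at 16 d, a ratio of 1260.0 (348 to 10400.0), and was at 0 to 80.6 CPM between 16 d libraries.

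In 3 other immune lists the share of rising genes was not far from the 18.1% of all genes tested. Of 26 lymphocyte genes matched 17 were tested and 4 rose, among them RAG2, of the antigen receptor recombinase (from 0.551 to 1.96 CPM), and ZAP70, a T cell kinase (from 0.495 to 1.72 CPM). RAG1 went from 7.38 to 17.2 CPM and did not pass with 24 libraries (adjusted p = 0.103), but did with 21, at a log2 change of 1.32 (adjusted p = 0.0292). Of 24 macrophage and neutrophil genes 6 rose and 1 fell, with the oxidase subunit gene cyba going from 7.50 to 16.1 CPM and LCP1, an actin bundler of leukocytes, from 16.0 to 34.1 CPM. Of 18 cytokine and inflammation genes 4 rose and 1 fell, and the prostaglandin synthase gene PTGS2 (ENSDARG00000010276) rose from 20.9 to 73.8 CPM.

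**Figure D3:**
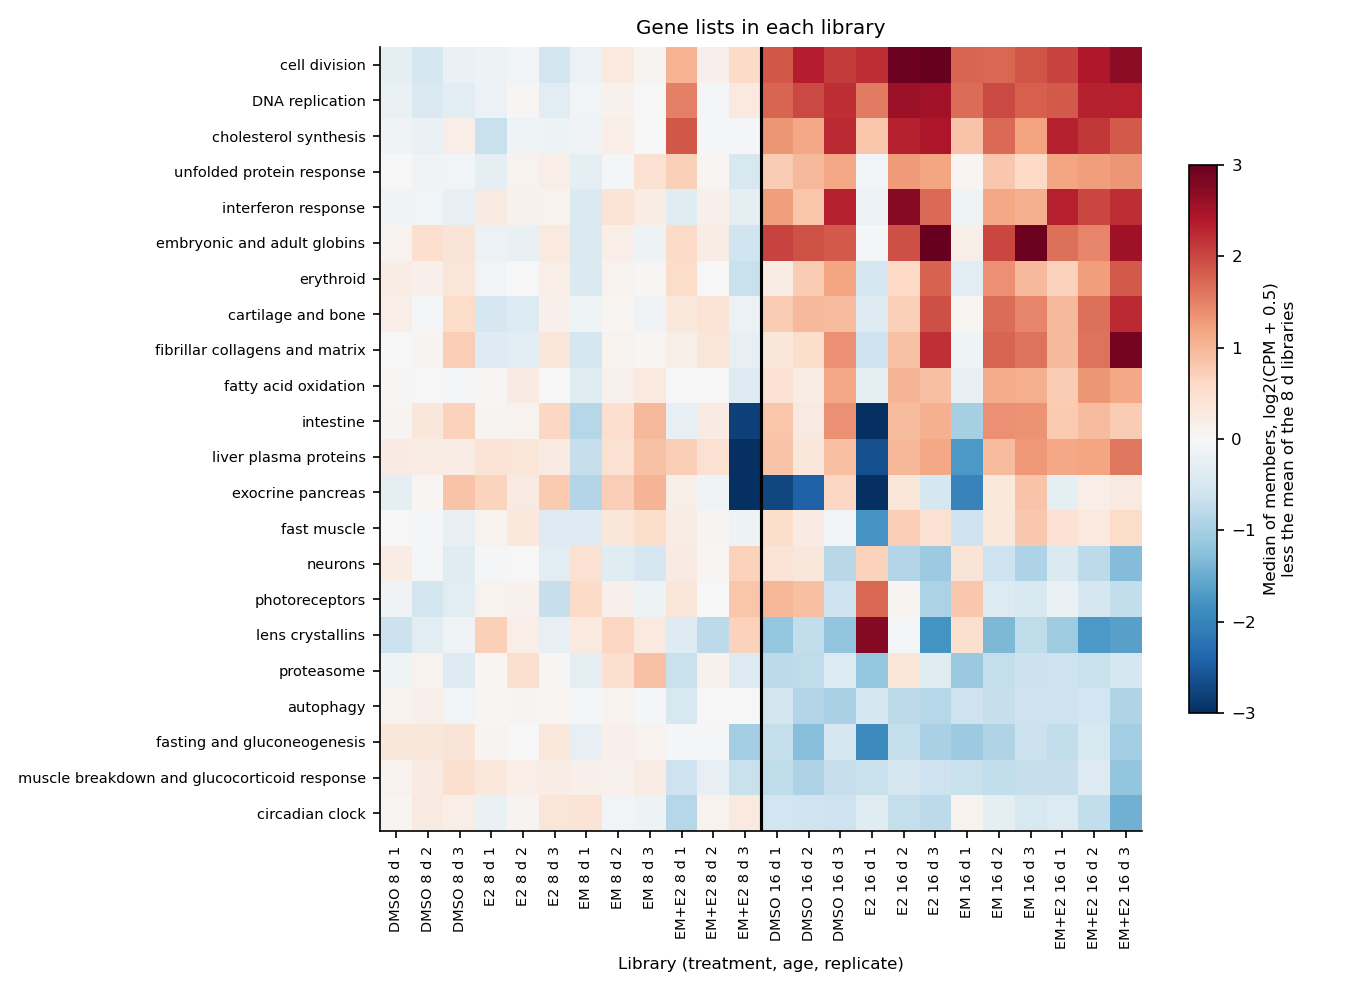
Median of the members of 22 gene lists in each library, as log2(CPM + 0.5) less the mean of the 8 d libraries, with 8 d to the left of the line. Division genes are raised in all 12 libraries of 16 d, while gut, liver and pancreas genes are low in E2 16 d 1, EM 16 d 1 and EM+E2 8 d 3. Pancreas genes are also low in DMSO 16 d 1 and DMSO 16 d 2.

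Counts of nervous system and lens genes also changed without the same 3 libraries. Of 31 neuron genes 3 rose and 6 fell (median -0.390), but 1 rose and 19 fell with 21 libraries. The neuron list medians were 0.0463 in DMSO, -0.00518 in E2, -0.198 in EM and -1.26 in EM+E2 (24 libraries). The difference between treatments was not tested for the list. DMSO 16 d replicates 1 and 2, kept in the repeat, were above the 8 d mean for this list, at 0.406 and 0.348. EM+E2 8 d replicate 3, kept as well, was the highest library of 8 d, at 0.701. Of 25 lens crystallin genes 2 rose and 1 fell, but 1 rose and 16 fell with 21. E2 16 d replicate 1 had the highest lens median of the 24 libraries, 2.75, and EM 16 d replicate 1 was also above the 8 d mean. Of 35 photoreceptor genes 2 rose and 0 fell, with opn1mw2, a green cone opsin in a tandem cluster, going from 16.5 to 47.1 CPM. Among single genes, tubb5, a tubulin of young neurons, rose from 80.2 ± 61.6 to 471 ± 278 CPM (a log2 change of 2.73 ± 0.36 SE, adjusted p = 4.63e-06), and dlb, a Notch ligand of neural progenitors, from 8.27 to 27.4 CPM. scg2b, a granule protein of neurosecretory cells, fell from 308 to 181 CPM. GRIFIN, a lens galectin, fell from 45.6 to 20.5 CPM, and crybb1l3, a crystallin, rose from 1.74 to 5.46 CPM. gap43, a protein of growing axons, rose from 59.21 to 127 CPM (adjusted p = 0.018), and with 21 libraries its log2 change was 0.89 (adjusted p = 0.0534).

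Of 19 genes of growth hormone signalling 5 rose and 5 fell, where 18.1% of all genes rose and 13.9% fell. With 21 libraries 6 rose and 5 fell, where 21.8% and 20.0% of all genes did. The receptor gene ghrb fell from 73.0 ± 21.6 to 25.9 ± 10.3 CPM (-1.49 ± 0.24). SOCS2 and CISH, feedback inhibitors of that receptor, fell from 34.4 to 12.5 CPM and from 54.7 to 26.2 CPM. mstnb, a myostatin that limits muscle growth, rose from 5.83 ± 1.43 to 13.3 ± 5.05 CPM (1.197 ± 0.20) with no overlap. gh1, the hormone itself, ranged from 0 to 44.1 CPM at 8 d and from 0 to 11.4 CPM at 16 d and did not pass (adjusted p = 0.285). Of 18 thyroid axis genes 2 rose and 3 fell, shares not far from the 18.1% and 13.9% of all genes tested. dio3b, which inactivates thyroid hormone, fell from 10.3 to 3.38 CPM, and DIO2, which activates it, rose from 1.32 to 3.19 CPM. Without the 3 libraries and EM+E2 16 d replicate 3 the adjusted p of DIO2 was 0.0785. PCSK1, a protease that matures peptide hormones, fell from 31.1 to 11.9 CPM.

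Clock genes fell more often than they rose, 14 against 1 of 33 (median -0.656). The list's median lay below that of every 8 d library in only 1 library of 16 d. EM+E2 8 d replicate 1 was the lowest of 8 d, at -0.858. tefb, an output factor of the clock, fell from 231 ± 113 to 62.5 ± 22.8 CPM (-1.91 ± 0.26), and nr1d4b, a clock repressor, from 9.37 to 1.86 CPM. Both CRY1 genes, repressors too, fell, from 76.5 to 35.0 CPM (ENSDARG00000011583) and from 239 to 147 CPM (ENSDARG00000045768), and bmal2, an activator, rose from 1.72 to 4.05 CPM. The labels give a 14 h light and 10 h dark cycle but no time of sampling, so time of day and age cannot be told apart. Of 13 melanophore genes 2 fell and 0 rose, a share of falls near the 13.9% of all genes tested. The 2 were SLC45A2, a melanosome transporter (from 13.9 to 4.12 CPM), and pmela, a fibre protein of the melanosome (from 41.2 to 21.6 CPM). Of 22 genes of xanthophores and iridophores 7 rose and 1 fell. gch2, of yellow pteridine synthesis, rose from 9.29 to 47.2 CPM, and SCARB1, which takes up carotenoids, fell from 63.8 to 17.0 CPM.

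Few germ cell and gonad genes were called. Of 23 germ cell genes matched, 12 were tested and 0 were called. The germ cell helicase gene DDX4 went from 4.50 to 3.06 CPM (adjusted p = 0.231). Of 28 genes of gonad somatic cells and steroid enzymes 13 were tested, and the one called was CYP17A1, of androgen and cortisol synthesis, which fell from 3.25 to 0.915 CPM. Of 17 genes in the list of vitellogenins and oestrogen targets 12 were tested and 5 rose, where 18.1% of all genes tested rose. ESR2 (ENSDARG00000034181), an oestrogen receptor, rose from 2.54 to 5.78 CPM. The yolk protein gene vtg7 was at 8.55 to 13.4 CPM in EM+E2 and 1.24 to 10.7 CPM in E2 at 16 d, against 0 to 0.509 in DMSO and EM. At 8 d only EM+E2 replicate 1 was above 0.430 CPM, at 9.70. Vitellogenin copies are close in sequence and may share reads.

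The age change could be taken in each treatment apart, with 3 libraries per age. At an adjusted p under 0.05 1554 genes changed in DMSO (7.23% of 21497), 1695 in E2 (7.88%), 616 in EM (2.87%) and 306 in EM+E2 (1.42%). The repeat with 21 libraries gave 2346 in DMSO (10.4% of 22467), 2698 in E2 (12.0%), 167 in EM (0.743%), where 1 library of 16 d remained, and 3016 in EM+E2 (13.4%). The count in EM+E2 was 291 when EM+E2 16 d replicate 3, closest to 32 d, was left out as well, and 57 when EM+E2 8 d replicate 3 was left out too. A lone library is assumed to vary as the others do. Counts within a treatment moved by more than 1.5 times without single libraries. In DMSO the lowest count was 584, without DMSO 8 d replicate 2, and it was 649 to 877 without DMSO 8 d replicates 1 or 3 or 16 d replicates 1 or 2. In E2 it was 840 to 941 without any one 8 d library of that group. In EM it was 181 to 397 without 8 d replicates 2 or 3 or 16 d replicates 1 or 3. In EM+E2 it was 8 to 44 without 8 d replicates 2 or 3 or 16 d replicates 2 or 3. Without E2 16 d replicate 1 it rose to 1171 in EM and 1747 in EM+E2. Of the 6884 genes called over all treatments 6490 (94.3%) changed in the same direction in all 4, a share that the choice of called genes raises. FBXO32 fell in each, with log2 changes of -5.52 in DMSO, -5.38 in E2, -5.15 in EM and -4.47 in EM+E2. mki67 rose by 3.31, 3.47, 2.23 and 1.99 in the same order. HMGCS1 was at 3.75, 4.36, 3.05 and 1.63, where the 363 CPM of EM+E2 8 d replicate 1 enters the last value. RSAD2 was at 5.97, 6.74, 0.69 and 5.85, and its value in EM did not pass the test (adjusted p = 0.877).

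**Figure D4:**
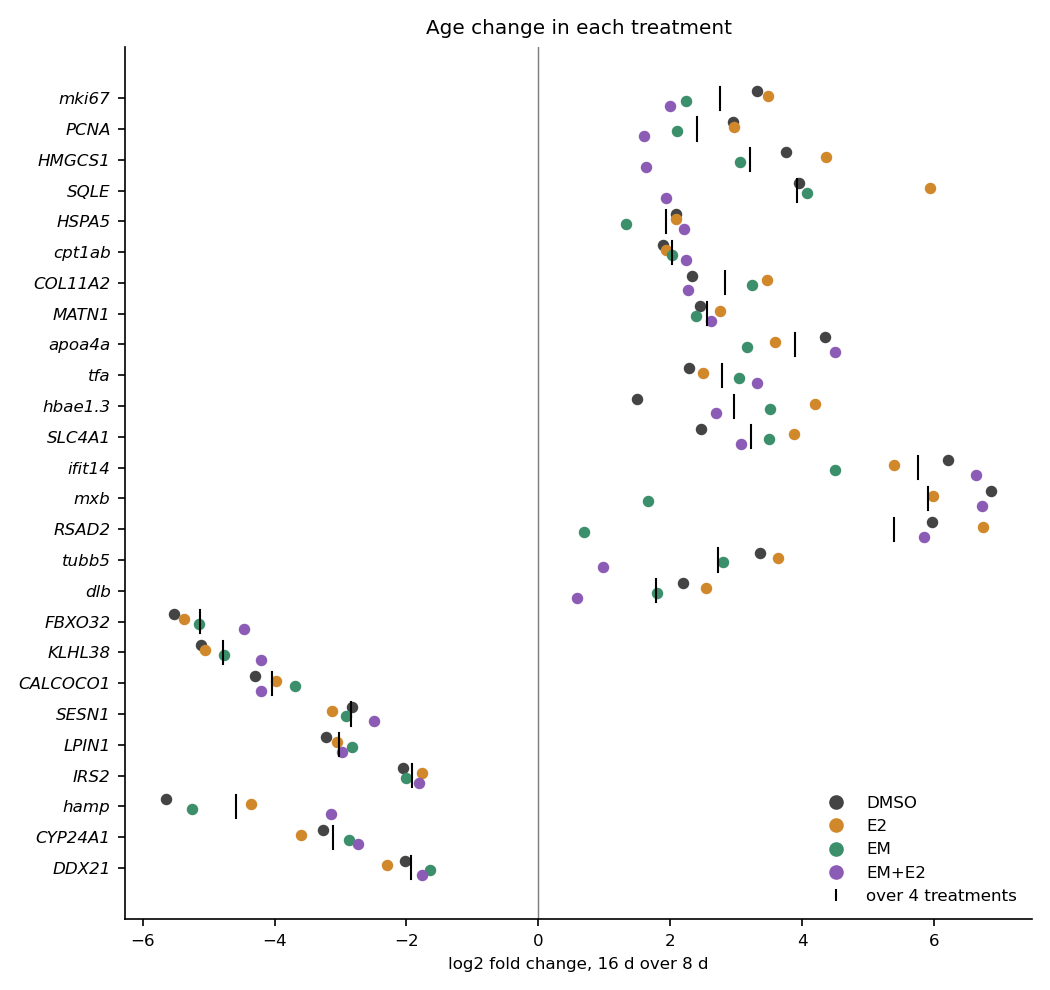
Log2 fold change from 8 to 16 d of 26 named genes in each treatment (points) and over the 4 treatments (black ticks). The direction is the same in all 4 treatments for each gene. For genes named for the size of their change, this was a condition of the choice. RSAD2 and mxb have their smallest value in EM.

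No gene was shown to change differently between treatments. The test of age by treatment called 0 of 21497 genes with edgeR, and 838 had an unadjusted p under 0.05 (3.90%). With 21 libraries it called 0, with 1113 under 0.05 (4.95%), and DESeq2 called 31 with 24. Leaving out EM 16 d replicate 2, so that replicates 1 and 3 stood for that group, gave 40, and leaving out E2 16 d replicate 2 gave 1. Among genes without clone or placeholder names, the smallest p was that of ifi27.6, an interferon-inducible gene (unadjusted p = 9.83e-05, adjusted p = 0.850). Its age changes were 4.81 in DMSO, 3.27 in E2, -1.31 in EM and 4.13 in EM+E2. For RSAD2 the unadjusted p was 0.0279 and the adjusted p 0.932. Next came NUSAP1, a spindle protein (adjusted p = 0.850), which was higher at 16 d in all 4 treatments, from 1.18 in EM+E2 to 3.69 in E2. UBE2C and ORC6, of mitotic exit and of replication origins, were among the smallest with 21 libraries (adjusted p = 0.854 for both). TMEM198, MT-ND6 and bcl2l16 followed with 24 libraries. TMEM198 was at 311 and 170 CPM in EM 16 d replicates 1 and 3 and at 1.27 to 11.1 in the other 22, and bcl2l16 at 307 and 240 CPM against 4.09 to 14.1. With 21 libraries the unadjusted p-values of TMEM198 and bcl2l16 were 0.455 and 0.166.

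Several of the genes that fell had been as low at 2 d, and 8 d was their highest age. In CPM scaled over 55 libraries of all 5 ages, FBXO32 averaged 3.71 ± 2.47 at 2 d (n = 10), 180 ± 63.7 at 8 d (n = 12), 4.75 ± 1.55 at 16 d (n = 12), 18.3 ± 10.9 at 32 d (n = 12) and 46.7 ± 40.8 at 64 d (n = 9). SESN1 averaged 163, 1120.0, 148, 283 and 205 CPM in that order, and its lowest 8 d library (707 CPM) was above every library of the other ages (highest 428). KLHL38, LPIN1 and DDX21 were also higher in every 8 d library than in any library of another age. The rise of mki67 from 26.8 to 162 CPM followed a mean of 712 CPM at 2 d, and it stood at 137 and 121 CPM at 32 and 64 d. COL11A2 had 367 CPM at 2 d, 41.3 at 8 d and 252 at 16 d. HMGCS1 was highest at 16 d (325 CPM), with 116 at 32 d and 81.5 at 64 d. RSAD2 had 34.7, 26.6 and 30.7 CPM at 16, 32 and 64 d, and tfa had 2879, 8714 and 10060.0 CPM. These levels at other ages were not tested.

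**Figure D5:**
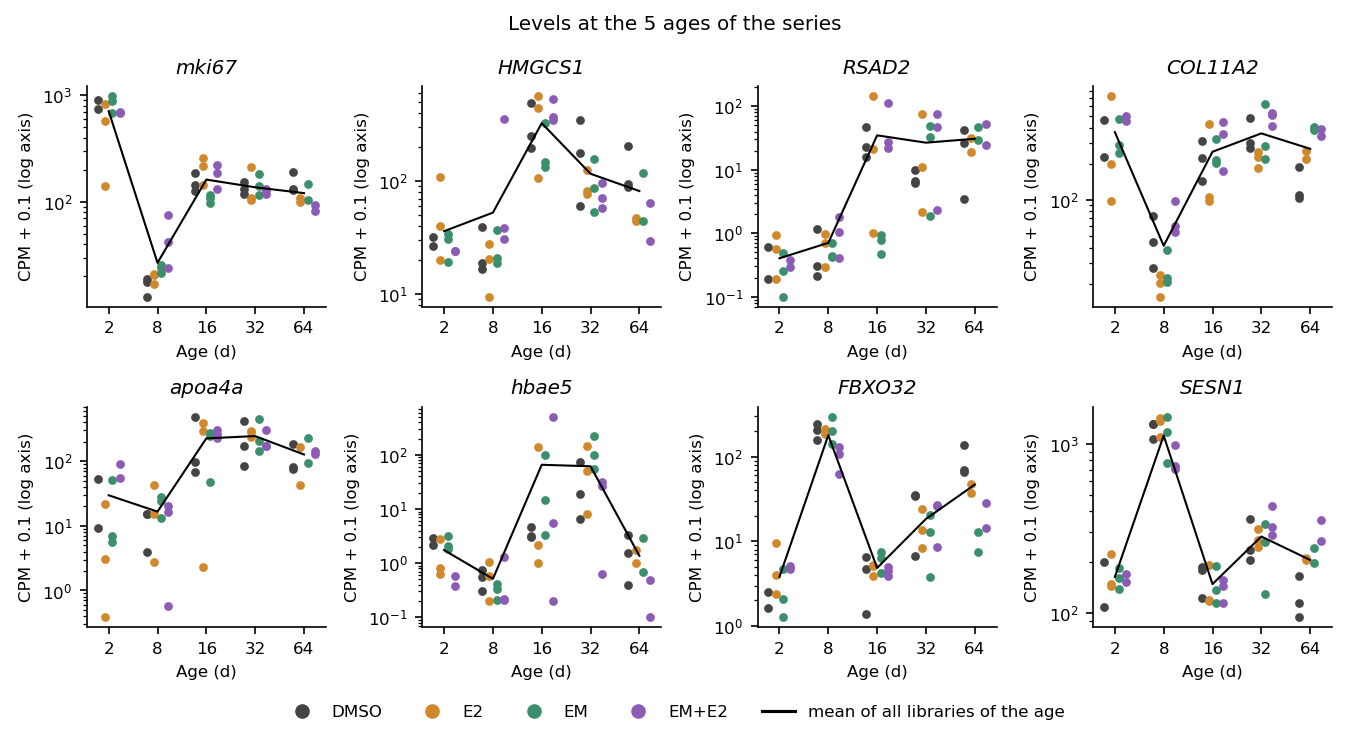
Level of 8 genes in 55 libraries at the 5 ages, as CPM + 0.1 on a log axis, coloured by treatment, with ages evenly spaced and a line through the mean of each age. FBXO32 and SESN1 are highest at 8 d, where mki67 and COL11A2 are lowest, and HMGCS1 is highest at 16 d.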

How the data were processed

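Polyadenylated RNA of whole larvae, 25 fish per library, was sequenced from libraries that mark the strand, per the labels' protocols. The authors used HTSeq 0.9.1, HISAT2 2.0.5 and build GRCz11, along with Picard, SAMtools 1.5 and the quality tools MultiQC 0.9 and FastQC 0.11.8, per the submitters' processing notes. The strand setting of the counting is not given in the sources used here, so overlapping and antisense genes are uncertain. The deposited table of raw counts (whole reads per Ensembl gene) was used for all results. A second deposited table holds a normalized signal, the authors' counts divided by 1 size factor per library. Whole reads were recovered from it (tolerance 0.01) for an alternative fit, and raw counts were 1.18 to 2.38 times as high.

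Libraries were grouped by the labels, and members and gene lists were chosen with earlier results of these data known. Genes were kept with edgeR's filterByExpr (minimum count 10, total 15), scaled by TMM and tested with edgeR 4.0.16's quasi-likelihood test in R 4.3.3, with treatment as covariate and Benjamini-Hochberg adjustment. Group means were used within treatments and for the interaction. SEs are the log2 fold change over the root of F. Mean levels are CPM on scaled library sizes, ± SD over 12 libraries per age unless a smaller group is named. List medians by library use log2(CPM + 0.5). DESeq2 1.42.0 served as an alternative. The fits were tested on simulated counts. The 53 lists hold 1221 symbols, of which 1135 matched. Named were the genes of largest change, those of smallest p in each list and those of smallest interaction p. The genes of largest change had to be called with both 24 and 21 libraries and to share 1 direction in all 4 treatments. Genes with clone or placeholder names were left out of these and of the interaction genes. MT-ND6 as a library check, and genes said to rest on 1 library, were singled out after their values were seen. Some genes are not reported here.

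Same-numbered libraries of the 2 ages deviated together (r over 0.1) in 7 of 12 pairs, from -0.218 to 0.635. Libraries of unlike number were not compared, so these r do not settle whether numbers pair libraries. The labels do not say that they do, and the main fit did not pair them. A fit with a replicate block is given below.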

Additional observations from a re-analysis of the deposited data

How the results depend on the processing

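Of 147 genes named, 139 were called. Of these, 133 kept the call and its direction in each of the 38 alternative settings that gave them an adjusted p. DESeq2 gave one for 143 of the 147 genes and the recovered reads for 145. DIO2, CUBN, MATN3, gap43, vtg7 and hbaa1 lost the call in at least 1 setting. The cause was not tested for any value here. With the 3 libraries left out genes lower numbered 4495, those lower by 1 or more 2102, and genes changed 2346 in DMSO, 2698 in E2, 167 in EM and 3016 in EM+E2. Leaving out EM+E2 16 d replicate 3 as well, a choice made after seeing the data, gave 2653 in E2, 163 in EM and 291 in EM+E2. Leaving out EM+E2 8 d replicate 3 too gave 2502 in DMSO, 2982 in E2, 213 in EM and 57 in EM+E2. DESeq2 gave 2603 in DMSO, 2755 in E2, 1447 in EM, 2050 in EM+E2 and 31 for the interaction. Recovered reads gave 732 in EM+E2 and a fit of all 5 ages 855.

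Leaving out 1 library at a time gave 3621 to 4710 genes higher and 2631 to 3961 lower, or 2156 to 2785 and 1117 to 1619 by 1 or more. Genes changed were 584 to 2186 in DMSO, 840 to 2302 in E2, 181 to 1171 in EM and 8 to 1747 in EM+E2, with 0 to 40 for the interaction. Without E2 16 d replicate 1 all age counts were highest. A replicate block gave 3567 genes higher and 3416 lower, and with the 3 libraries out also 0 in EM and 2744 in EM+E2. The libraries share only a number.

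TMEM198 turned from higher to lower with the block and the 3 libraries out (-0.0647) and with 5 libraries out (-0.00376). bcl2l16, at 0.48 with 24 libraries, was at -0.535 without the 3, -0.551 without the 3 and with the block, -0.582 without 4 and -0.625 without 5. Depth limits genes of few reads, where intervals cover counting error only.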

Other observations

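The counts of the remaining lists are to be read against all genes tested, of which 18.1% rose and 13.9% fell. With 21 libraries these shares were 21.8% and 20.0%. Of 28 keratin and skin genes 2 rose and 1 fell, or 10 and 1 with 21 libraries. The envoplakin gene evpla, of the tough layer of the epidermis, rose from 58.5 ± 21.8 to 136 ± 85.9 CPM, and the keratin gene cyt1l fell from 78.3 ± 28.7 to 31.1 ± 16.1 CPM. Of 21 genes of ionocytes and gill 0 rose and 1 fell in edgeR's test. Of 22 genes of myelin and glia 2 rose and 2 fell, or 2 and 5 with 21 libraries. S100B, a calcium-binding protein of glia, rose from 13.5 ± 5.53 to 34.1 ± 18.7 CPM, and mag, an adhesion protein of myelin, fell from 35.1 ± 7.89 to 18.5 ± 6.44 CPM.

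Of 11 genes tested of the endocrine pancreas 2 fell, both of them prohormone proteases, PCSK1 and PCSK2 (14.2 ± 6.29 to 8.32 ± 5.27 CPM). With 21 libraries 1 of the 11 rose and 4 fell. Of 6 chitinase genes 2 rose, with chia.5, an enzyme that digests chitin, going from 3.69 ± 1.99 to 12.5 ± 8.90 CPM. With 21 libraries 3 chitinase genes rose. Of 10 bile acid enzyme genes tested 2 rose and of 20 genes of xenobiotic metabolism 2 rose, or 4 and 6 with 21 libraries. Of 17 neural progenitor genes 4 rose and 0 fell, or 4 and 3 with 21 libraries.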
